A study of Arabidopsis thaliana with 8 samples.

Results

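Glucosinolates are sulfur-rich defence compounds of Arabidopsis and other Brassicales, and 42 genes of their synthesis, transport and activation were followed in whole seedlings mutated in DEK3, DEK4 or both. The genes were listed by locus code from what is known of the pathway, and no measured value served as a filter. Earlier results of these data were known when the list was made. The members are 42 of the 33557 genes in the files. By branch, 26 act on aliphatic glucosinolates, 9 on indolic glucosinolates and 7 on both. RNA was sequenced from whole seedlings aged 7 days, grown on plates in long days, in 4 groups: Col-0, the wild type; dek3-2, mutated in DEK3; dek4-2, mutated in DEK4; and dd-2, the dek3-2 dek4-2 double mutant. Each group held 2 libraries, which the labels call biological replicates, and no group received a treatment. DEK3 and DEK4 encode members of the DEK family of chromatin proteins, and the study set out to learn which transcripts depend on them.

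Aliphatic glucosinolates are built from methionine, whose side chain is first lengthened by repeated cycles in the chloroplast, while indolic glucosinolates are built from tryptophan. In both branches cytochromes P450 turn the amino acid into an oxime and then into a reactive intermediate, which is joined to sulfur, glucosylated and sulfated into the core structure, and the side chain may then be modified. Some MYB transcription factors switch on the aliphatic genes, and others the indolic genes. The finished compounds are moved by GTR transporters, and when tissue is damaged myrosinases such as TGG1 and TGG2 split them into toxic products.

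Expression is given as FPKM, a fragment count divided by gene length in kilobases, less an end correction, and by library size. The mutated genes were checked first. DEK3 stood at 48.3 and 70.2 FPKM in Col-0, 16.7 and 13.3 in dek3-2, 47.3 and 80.7 in dek4-2, and 19.9 and 17.5 in dd-2, so the 4 libraries labelled as carrying dek3-2 were the 4 lowest. DEK4 stood at 23.7 and 35.2 FPKM in Col-0, 38.0 and 27.0 in dek3-2, 10.3 and 18.4 in dek4-2, and 16.3 and 15.4 in dd-2, so the 4 libraries labelled as carrying dek4-2 were the 4 lowest. Neither mutant transcript was absent. Summed FPKM ran from 839267 to 873796 per library, and the correlation of replicates across genes from 0.9819 to 0.9849. Relative depth ran from 0.801 to 1.121 of the mean library, and the dd-2 libraries were the 2 shallowest, at 0.915 and 0.801. In dek4-2 replicate 1, 24.8% of genes were under 0.1 FPKM, against 16.1% to 18.8% in the other 7 libraries. In dek3-2 replicate 1 the 3 seed storage markers CRA1, CRU2 and OLEO1 summed to 340.3 FPKM, against 0.659 to 28.5 in the other 7 libraries.

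In Col-0 the members spanned a wide range of levels per length. TGG1 was the most abundant, at 1085.4 and 1396.2 FPKM. It was followed by GGP1, which cleaves the glutathione conjugate of the core pathway, at 169.7 and 200.3 FPKM, and by IIL1, the large subunit of the isomerase of chain elongation, at 190.0 and 177.0 FPKM. The Col-0 libraries of GGP1 and IIL1 overlapped, so their order was not resolved. Next came CYP83B1, the second P450 of the indolic branch, at 127.5 and 129.6 FPKM, and CYP83A1, its aliphatic counterpart, at 86.9 and 80.8 FPKM. These 2 genes did not overlap with each other or with IIL1. Of the 42 members, 39 reached a mean of 1 FPKM over the 8 libraries and were tested. The 3 below it were MYB76 at 0.196 to 0.734 FPKM, MYB122 at 0.241 to 0.631 and AOP3 at 0.0684 to 0.835.

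**Figure D1:**
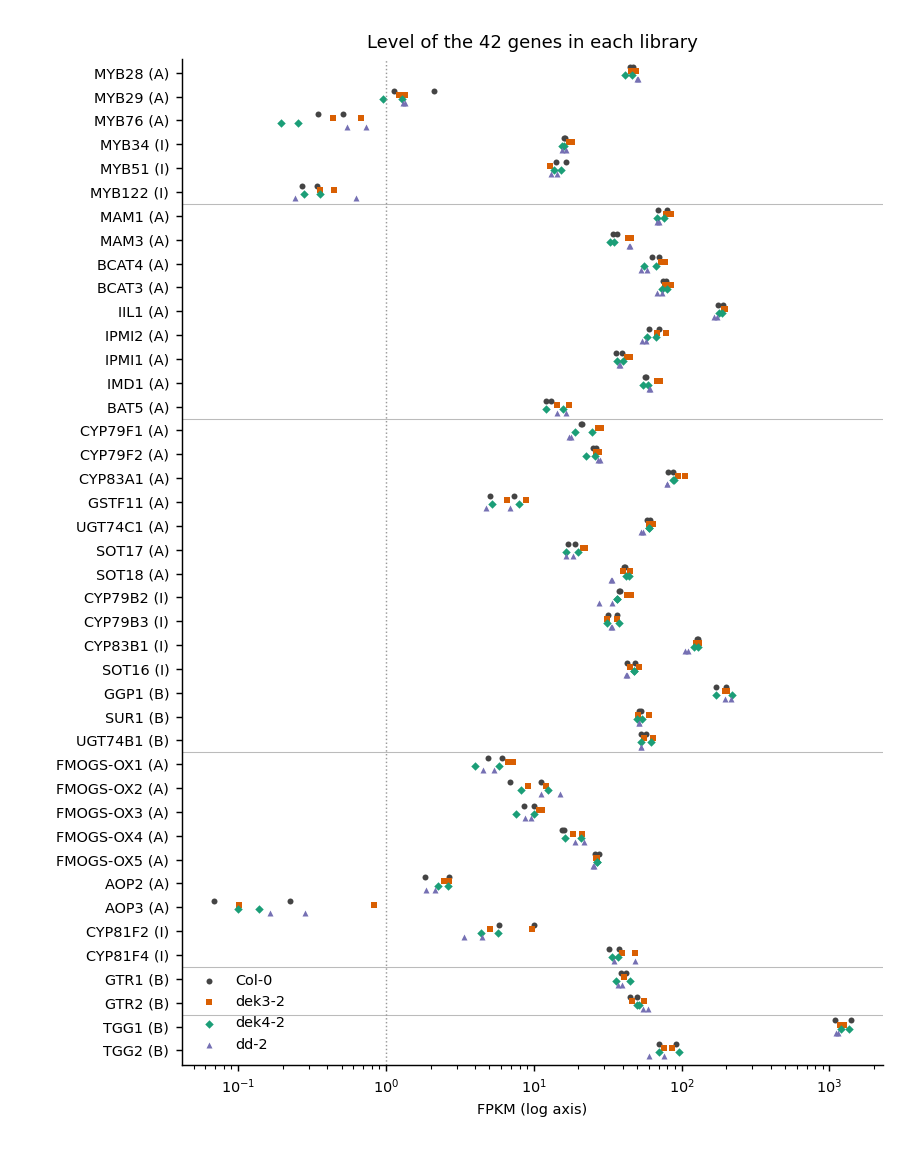
FPKM of the 42 genes in each of the 8 libraries on a log axis, ordered by role, with 1 symbol per library and genotype; A marks the aliphatic branch, I the indolic branch and B both, and the dotted line is the minimum mean of 1 FPKM for testing. MYB76, MYB122 and AOP3 lie left of the line, and for most other genes the 4 genotypes lie close together.

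No member passed the test in any comparison. The test was limma on log2(FPKM + 1) with 1 mean per group, over 19017 genes, with a Benjamini-Hochberg adjusted p below 0.05, and differences are given on that log2 scale, where the change of low genes is understated. In the same test 8 genes, 0.0421% of those tested, passed in dek3-2 against Col-0, 4 genes (0.021%) in dek4-2 against Col-0 and 48 genes (0.252%) in dd-2 against Col-0. Against dek3-2, 0.0263% of all genes passed in dd-2 and the same percentage in dek4-2, while 0.0421% passed in dd-2 against dek4-2. The lowest adjusted p of a member in limma was 0.0974, for MAM3 in dd-2 against Col-0. The labels do not say whether the 2 libraries of a genotype came from separate sowings, so p-values measure the spread between these libraries only. All 3 mutants were compared with the same 2 Col-0 libraries, so those comparisons are not independent. The library numbered 2 stood above the library numbered 1 in all 4 genotypes for 10 of the 39 tested members, beside 11.9% of all genes, and below it for 0, beside 8.99%.

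In dek3-2 most aliphatic genes stood slightly above Col-0, and the indolic genes showed no common direction. Of the 24 tested aliphatic genes, 22 had a positive difference, and in 12 both dek3-2 libraries lay above both Col-0 libraries. The median difference over these 24 genes was 0.19, against 0.04 over all tested genes. Over the 39 tested members, 32 were above 0, where 64.7% of all genes were, and 15 had both dek3-2 libraries above both Col-0 libraries, where 20.9% of all genes had. Both libraries lay below in 1 member, MYB51, where 10.1% of all genes had that pattern. At an unadjusted p below 0.05 limma gave 7 members higher and 0 lower, beside 3.44% of all genes. All 7 were aliphatic. The 8 tested indolic genes split evenly, with 4 above and 4 below 0 and a median of 0.03. Without dek3-2 replicate 1, the library with the seed markers, the aliphatic median was 0.21 and the indolic median 0.16.

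In dek4-2 the members stayed near Col-0. The median difference of the 24 tested aliphatic genes was 0.00, as it was for all genes, and that of the 8 tested indolic genes was -0.03. Of the 39 tested members 20 were above 0, beside 51.1% of all genes. Both dek4-2 libraries lay above both Col-0 libraries in 3 members (FMOGS-OX4, CYP83A1 and SOT18), beside 12.0% of all genes, and below in 2 members (CYP81F2 and CYP79B2), beside 12.1% of all genes. At an unadjusted p below 0.05 limma gave 0 members, beside 1.97% of all genes. Without dek4-2 replicate 1, the library with the most genes near 0, the aliphatic median was 0.06.

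In dd-2 most members stood below Col-0, while in FPKM as deposited most genes stood above it. Of the 39 tested members 28 were below 0 and 11 above, where 65.9% of all genes were above. The median difference was -0.08 over the 24 tested aliphatic genes and -0.12 over the 8 tested indolic genes, against 0.08 over all genes. Both dd-2 libraries lay below both Col-0 libraries in 12 members, beside 15.3% of all genes, and above in 8 members, beside 38.0% of all genes. Median-of-ratios scaling divides each library by its median ratio to the geometric mean of each gene, over genes above 0 in all 8 libraries. Under it these counts became 21 below, beside 25.7% of all genes, and 4 above, beside 22.7%. The share of all genes above 0 then became 50.2%. The same scaling moved the median of all genes from 0.08 to 0.001 in dd-2 against Col-0. In dd-2 against dek4-2 it moved that median from 0.07 to -0.04. At an unadjusted p below 0.05 limma gave 3 members higher (MAM3, FMOGS-OX4 and GTR2) and 5 lower (SOT18, CYP83B1, CYP79B2, CYP81F2 and BCAT4) in dd-2 against Col-0, beside 18.6% of all genes. Without Col-0 replicate 2 the aliphatic median turned to 0.02 and the indolic median was -0.09.

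Some markers of organs and cell types also stood apart in dd-2, though none passed the test against Col-0. The 3 green-tissue markers did not share a direction. RBCS1A, which makes up almost all of their summed FPKM, stood at 11154.4 and 10720.7 FPKM in dd-2 against 12445.6 to 15159.3 in the other 6 libraries, a difference from Col-0 of -0.37 ± 0.11 (SE, limma adjusted p = 0.161). LHCB2.2 and CAB3 lay above Col-0 with both dd-2 libraries, by 0.80 ± 0.19 (adjusted p = 0.11) and 0.52 ± 0.15 (adjusted p = 0.149). Among all genes 38.0% had both dd-2 libraries above both Col-0 libraries, and 15.3% had both below. The summed green-tissue level was 11252.5 and 10840.7 FPKM in dd-2 and 12541.1 to 15236.6 elsewhere. The 3 root endodermis markers summed to 21.0 and 20.5 FPKM in dd-2 and to 9.78 to 13.9 elsewhere, and each was detected in every library. The lowest limma adjusted p of the 3 in dd-2 against Col-0 was 0.0612, for PER64. The 5 guard cell markers, of a cell type in which TGG1 is expressed, summed to 633.1 and 615.0 FPKM in dd-2 and to 645.2 to 781.6 elsewhere, with none at 0. Most of that sum was GC1, at 548.1 and 533.5 FPKM in dd-2 and 559.7 to 700.8 elsewhere. The other guard cell markers were split, with KAT1 at 0.31 and MYB60 at 0.20 from Col-0 in dd-2 and FAMA at -0.18 and HT1 at -0.11, and of the 4 only KAT1 had libraries that did not overlap with Col-0. The 2 root hair markers summed to 6.73 and 8.54 FPKM in dd-2 and to 2.82 to 7.23 elsewhere. In whole seedlings fewer cells of a type and less RNA per cell cannot be told apart, and the part of these markers in the glucosinolate values was not tested.

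The widest spread between mutants lay between dek3-2 and dd-2. Of the 39 tested members, 30 were lower in dd-2 than in dek3-2, whereas 58.8% of all genes were higher (46.5% under median-of-ratios scaling). Both dd-2 libraries lay below both dek3-2 libraries in 24 members, beside 16.7% of all genes, and above in 2, beside 27.0%. At an unadjusted p below 0.05 limma gave 15 members lower and 0 higher, beside 10.6% of all genes, and 13 of the 15 were aliphatic. The comparison of dd-2 with dek4-2 gave 25 of 39 lower, where 67.7% of all genes were higher. There both dd-2 libraries lay below in 14 members (12.2% of all genes) and above in 6 (32.7%), and under median-of-ratios scaling below in 24 (28.6%) and above in 3 (14.0%). At an unadjusted p below 0.05 it gave 2 members higher and 4 lower, beside 12.4% of all genes. In dek4-2 against dek3-2, 33 of 39 members were lower and 6 higher, where 35.0% of all genes were higher (61.9% under median-of-ratios scaling). In each of these comparisons between mutants the side on which most genes lay turned with the scaling. Both dek4-2 libraries lay below both dek3-2 libraries in 16 members, beside 18.8% of all genes, and above in 1, beside 8.06%. At an unadjusted p below 0.05 limma gave 8 lower and 0 higher, beside 2.73%. Under median-of-ratios scaling both dek4-2 libraries lay below both dek3-2 libraries in 12 members (9.09% of all genes) and above in 2 (18.0%). With that scaling both dd-2 libraries lay below both dek3-2 libraries in 27 members (24.7% of all genes) and above in 0 (18.3%).

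**Figure D2:**
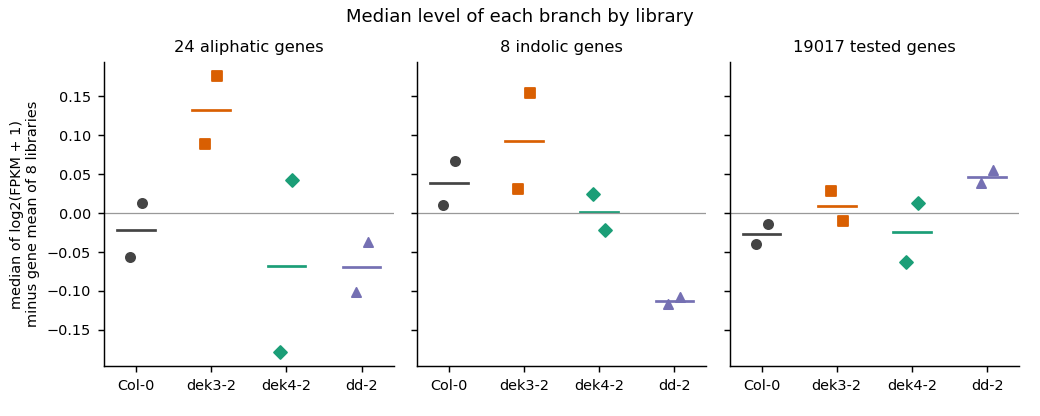
Median over the tested members of each branch of centred log2(FPKM + 1), with 1 point per library and a line at the mean of the 2 libraries, beside the same for all tested genes. Each gene was centred on its mean over the 8 libraries before the median was taken. The aliphatic median is highest in the dek3-2 libraries, at 0.09 and 0.18, and the indolic median lowest in the dd-2 libraries, at -0.12 and -0.11.

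**Figure D3:**
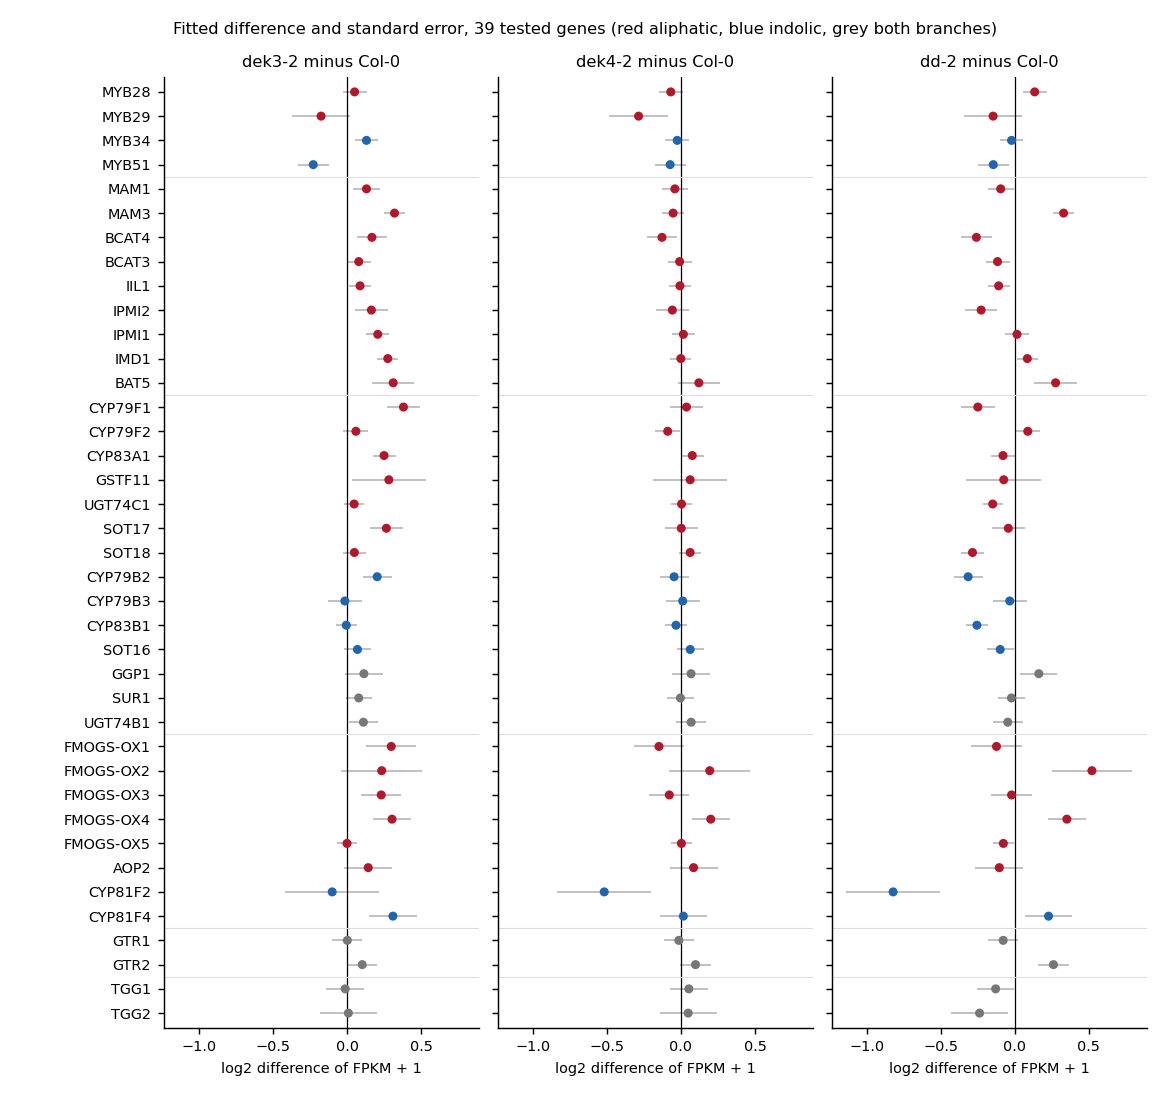
Log2 difference from Col-0 of each tested member in dek3-2, dek4-2 and dd-2, with the standard error as a bar and 0 as a line, ordered by role. Aliphatic genes lie mostly right of 0 in dek3-2, near 0 in dek4-2 and mostly left of 0 in dd-2, and no member passed the test.

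The MYB regulators showed no difference that passed the test. MYB28 (AT5G61420), the main activator of the aliphatic genes, stood at 44.6 and 46.8 FPKM in Col-0, 49.3 and 45.6 in dek3-2, 41.1 and 46.1 in dek4-2, and 50.8 and 49.7 in dd-2. The dd-2 libraries of MYB28 were the 2 highest of the 8, a pattern that 17.1% of all genes shared and that was lost under median-of-ratios scaling. The difference of dd-2 from Col-0 was 0.13 ± 0.08 (SE, n = 2 and 2, limma adjusted p = 0.386), and those of dek3-2 and dek4-2 were 0.05 and -0.07. MYB29, a second aliphatic activator, stood near the minimum for testing, at 1.13 and 2.12 FPKM in Col-0, 1.22 and 1.34 in dek3-2, 0.947 and 1.29 in dek4-2, and 1.35 and 1.31 in dd-2. Each mutant overlapped with Col-0. MYB29 differed from Col-0 by -0.18 in dek3-2, by -0.29 in dek4-2 and by -0.15 in dd-2, and without Col-0 replicate 2, its highest library, these values were 0.10, -0.01 and 0.13. MYB76, the third aliphatic activator, was not tested.

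Of the indolic regulators, MYB34 (AT5G60890) stood at 16.2 and 16.1 FPKM in Col-0, 17.3 and 18.2 in dek3-2, 16.1 and 15.6 in dek4-2, and 15.4 and 16.4 in dd-2. Its dek3-2 libraries were the 2 highest, beside 2.83% of all genes with that pattern, and the difference from Col-0 was 0.13 ± 0.08 (SE, limma adjusted p = 1). Under median-of-ratios scaling they were no longer the 2 highest, and the dd-2 libraries of MYB34 were the 2 lowest. The differences of MYB34 in dek4-2 and dd-2 were -0.03 and -0.02. MYB51 (AT1G18570), which drives indolic genes in defence, stood at 14.1 and 16.4 FPKM in Col-0, 12.8 and 12.9 in dek3-2, 15.2 and 13.6 in dek4-2, and 14.3 and 13.0 in dd-2. Its dek3-2 libraries were the 2 lowest of the 8, beside 1.7% of all genes with that pattern, and the difference from Col-0 was -0.23 ± 0.10 (SE, limma adjusted p = 1). Under median-of-ratios scaling they were no longer the 2 lowest. Its differences were -0.07 in dek4-2 and -0.15 in dd-2. MYB122 was not tested.

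Chain elongation begins with removal of the amino group of methionine by BCAT4, goes on with condensation by the methylthioalkylmalate synthases MAM1 and MAM3, isomerisation by IIL1 with IPMI1 or IPMI2, and oxidation by IMD1, and ends with BCAT3, while BAT5 carries the keto acids into the chloroplast. All 9 of these genes were tested, and all 9 stood above Col-0 in dek3-2, where 64.7% of all genes did. In 6 of them both dek3-2 libraries lay above both Col-0 libraries, as in 20.9% of all genes, and the median was 0.17 (0.14 under median-of-ratios scaling). In dd-2, 4 of the 9 stood above and 5 below Col-0, where 65.9% of all genes stood above. Of the 9, 8 were lower in dd-2 than in dek3-2, where 58.8% of all genes were higher.

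The exception was MAM3 (AT5G23020; chromosome 5, 7718121 to 7721839), which makes products of all chain lengths. It stood at 36.4 and 34.1 FPKM in Col-0, 45.4 and 43.1 in dek3-2, 32.9 and 35.0 in dek4-2, and 44.9 and 44.2 in dd-2. All 4 libraries carrying dek3-2 were above the 4 that did not. The difference from Col-0 was 0.32 ± 0.07 (SE, limma adjusted p = 1) in dek3-2, -0.05 ± 0.07 in dek4-2 and 0.33 ± 0.07 (adjusted p = 0.0974) in dd-2. IMD1 (AT5G14200), the dehydrogenase, had the same order, with 57.7 and 56.9 FPKM in Col-0, 67.7 and 71.4 in dek3-2, 55.1 and 59.5 in dek4-2, and 61.4 and 60.3 in dd-2. The files count IMD1 on a locus merged over 2 genes, so its value is uncertain. Among all genes 4.49% had all 4 dek3-2 and dd-2 libraries above the other 4, beside 2 of 39 members, and 1.28% had them all below, beside 0 members. Under median-of-ratios scaling MAM3 kept this order and IMD1 did not.

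MAM1 (AT5G23010; chromosome 5, 7703092 to 7706896), the neighbour of MAM3, which makes the short chains, did not share the order, at 79.2 and 69.5 FPKM in Col-0, 78.6 and 84.2 in dek3-2, 68.5 and 75.8 in dek4-2, and 68.5 and 70.3 in dd-2. The dd-2 libraries of MAM1 lay below the dek3-2 libraries and overlapped with Col-0. The ratio of MAM3 to MAM1 within a library, which does not depend on scaling between libraries, was 0.46 and 0.49 in Col-0, 0.578 and 0.512 in dek3-2, 0.481 and 0.462 in dek4-2, and 0.656 and 0.628 in dd-2. The ratio was highest in the dd-2 libraries and next highest in the dek3-2 libraries, with no overlap between either and Col-0. The longest run of bases that the transcripts of MAM1 and MAM3 share is 30.

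IIL1 (AT4G13430; chromosome 4, 7803933 to 7807871) stood at 190.0 and 177.0 FPKM in Col-0, 194.2 and 195.7 in dek3-2, 187.4 and 177.7 in dek4-2, and 166.0 and 173.9 in dd-2. Both dek3-2 libraries were the highest of the 8 and both dd-2 libraries the lowest, with differences from Col-0 of 0.09 ± 0.07 and -0.11 ± 0.07 (SE). BCAT4 (AT3G19710), on a locus merged over 2 genes, stood at 70.8 and 63.1 FPKM in Col-0, 72.9 and 77.6 in dek3-2, 55.9 and 66.7 in dek4-2, and 53.2 and 58.3 in dd-2. Its dd-2 libraries lay below Col-0, with a difference of -0.26 ± 0.10 (SE, limma adjusted p = 0.236). BAT5 (AT4G12030), the keto acid carrier, stood at 12.1 and 13.1 FPKM in Col-0, 14.4 and 17.4 in dek3-2, 12.1 and 15.7 in dek4-2, and 14.3 and 16.6 in dd-2. Both dek3-2 and dd-2 lay above Col-0 for BAT5, by 0.31 ± 0.14 (SE, limma adjusted p = 1) and 0.28 ± 0.14 (adjusted p = 0.325). The other elongation genes, BCAT3, IPMI1 and IPMI2, differed from Col-0 by 0.08, 0.21 and 0.16 in dek3-2 and by -0.12, 0.01 and -0.23 in dd-2.

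In the aliphatic core pathway all 7 genes stood above Col-0 in dek3-2, beside 64.7% of all genes, with a median of 0.25. In dd-2, 6 of the 7 stood below Col-0, where 65.9% of all genes stood above it, and the median of the 7 was -0.08. Between dd-2 and dek3-2 the median of the 7 was -0.33, against 0.03 over all genes, and -0.38 under median-of-ratios scaling. Without dek3-2 replicate 2 the median of dek3-2 against Col-0 was 0.09, with 6 of 7 above 0.

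CYP79F1 (AT1G16410; chromosome 1, 5608807 to 5611426), which turns elongated methionine into oximes, showed the largest difference of any member in dek3-2. It stood at 21.1 and 21.0 FPKM in Col-0, 27.0 and 28.5 in dek3-2, 19.0 and 24.6 in dek4-2, and 17.9 and 17.2 in dd-2. Its dek3-2 libraries were the 2 highest of the 8 and its dd-2 libraries the 2 lowest. The difference from Col-0 was 0.38 ± 0.11 (SE, limma adjusted p = 1) in dek3-2 and -0.25 ± 0.11 (adjusted p = 0.283) in dd-2. The difference between dd-2 and dek3-2 was -0.63 ± 0.11 (SE, limma adjusted p = 0.164). CYP79F2 (AT1G16400; chromosome 1, 5605159 to 5607473), the neighbouring copy that uses long chains, stood at 25.1 and 26.5 FPKM in Col-0, 26.3 and 27.6 in dek3-2, 22.6 and 25.9 in dek4-2, and 27.1 and 27.9 in dd-2. Here the dd-2 libraries lay above both Col-0 libraries, by 0.09 ± 0.09 (SE). The ratio of CYP79F1 to CYP79F2 within a library was 0.84 and 0.794 in Col-0, 1.027 and 1.032 in dek3-2, 0.843 and 0.95 in dek4-2, and 0.662 and 0.617 in dd-2. It was highest in dek3-2 and lowest in dd-2, with no overlap of either with another genotype. The transcripts of the 2 genes share a run of 100 bases, and 2.0% of the 50-base windows of CYP79F1 occur in CYP79F2, so a few of their fragments may have been counted for the wrong copy.

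CYP83A1 (AT4G13770; chromosome 4, 7990485 to 7992311), which acts on the aliphatic oximes, stood at 86.9 and 80.8 FPKM in Col-0, 94.4 and 105.5 in dek3-2, 87.7 and 89.1 in dek4-2, and 79.1 and 79.3 in dd-2. The 4 genotypes did not overlap, in the order dek3-2, dek4-2, Col-0 and dd-2, and the difference from Col-0 was 0.25 ± 0.08 (SE) in dek3-2 and -0.08 ± 0.08 in dd-2. SOT18 (AT1G74090; chromosome 1, 27862909 to 27864193), a sulfotransferase of the last core step, stood at 40.8 and 41.1 FPKM in Col-0, 40.2 and 44.8 in dek3-2, 41.8 and 43.8 in dek4-2, and 33.6 and 33.2 in dd-2. Its dd-2 libraries were the 2 lowest, with a difference from Col-0 of -0.29 ± 0.08 (SE, limma adjusted p = 0.128). SOT17, a sulfotransferase of the same branch, stood at 22.2 and 21.5 FPKM in dek3-2, above the 16.4 to 19.8 of the other 6 libraries, and its dd-2 libraries lay within the range of Col-0 or below it, at 16.4 and 18.5. UGT74C1, a glucosyltransferase counted on a merged locus, stood lowest in dd-2, at 55.1 and 52.8 FPKM against 58.7 to 63.9 elsewhere. GSTF11, a glutathione transferase, ran from 4.75 to 8.89 FPKM, and its replicates differed by more than the means of its genotypes.

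In the indolic core pathway all 4 genes stood below Col-0 in dd-2, where 65.9% of all genes stood above it. In dek3-2, 2 of the 4 stood above Col-0, beside 64.7% of all genes. The dd-2 libraries of CYP79B3 and SOT16 overlapped with Col-0, at -0.03 ± 0.12 and -0.10 ± 0.09 (SE). CYP79B2 (AT4G39950; chromosome 4, 18525246 to 18527579), which turns tryptophan into its oxime, stood at 37.6 and 38.4 FPKM in Col-0, 45.6 and 42.4 in dek3-2, 36.8 and 36.8 in dek4-2, and 27.5 and 33.6 in dd-2. The dek3-2 libraries were the 2 highest and the dd-2 libraries the 2 lowest, with differences from Col-0 of 0.20 ± 0.10 (SE, limma adjusted p = 1) and -0.31 ± 0.10 (adjusted p = 0.163). It was also the 1 member with all 4 libraries carrying dek4-2 below the other 4, which 1.36% of all genes showed, and this order was lost under median-of-ratios scaling. The reverse, with those 4 libraries on top, was seen in 0 members and 1.37% of all genes.

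CYP79B3, which catalyses the same step, did not follow CYP79B2, at 31.4 to 37.9 FPKM with all genotypes overlapping. The ratio of CYP79B2 to CYP79B3 was 1.023 and 1.209 in Col-0, 1.253 and 1.345 in dek3-2, 0.97 and 1.172 in dek4-2, and 0.828 and 1.0 in dd-2. The dek3-2 ratios were the highest, while the dd-2 ratios lay below Col-0 but overlapped with dek4-2. CYP83B1 (AT4G31500; chromosome 4, 15273471 to 15275310), the next enzyme, stood at 127.5 and 129.6 FPKM in Col-0, 124.7 and 131.6 in dek3-2, 129.8 and 121.5 in dek4-2, and 110.3 and 104.7 in dd-2. Only its dd-2 libraries stood apart, with a difference from Col-0 of -0.26 ± 0.07 (SE, limma adjusted p = 0.145). SOT16, the indolic sulfotransferase, stood at 43.0 and 42.3 FPKM in dd-2 and at 43.0 to 51.6 elsewhere. Of the core enzymes that serve both branches, SUR1 and UGT74B1 had differences between -0.05 and 0.11 from Col-0 in dek3-2 and dd-2, and GGP1 stood at 0.11 in dek3-2 and 0.16 in dd-2.

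**Figure D4:**
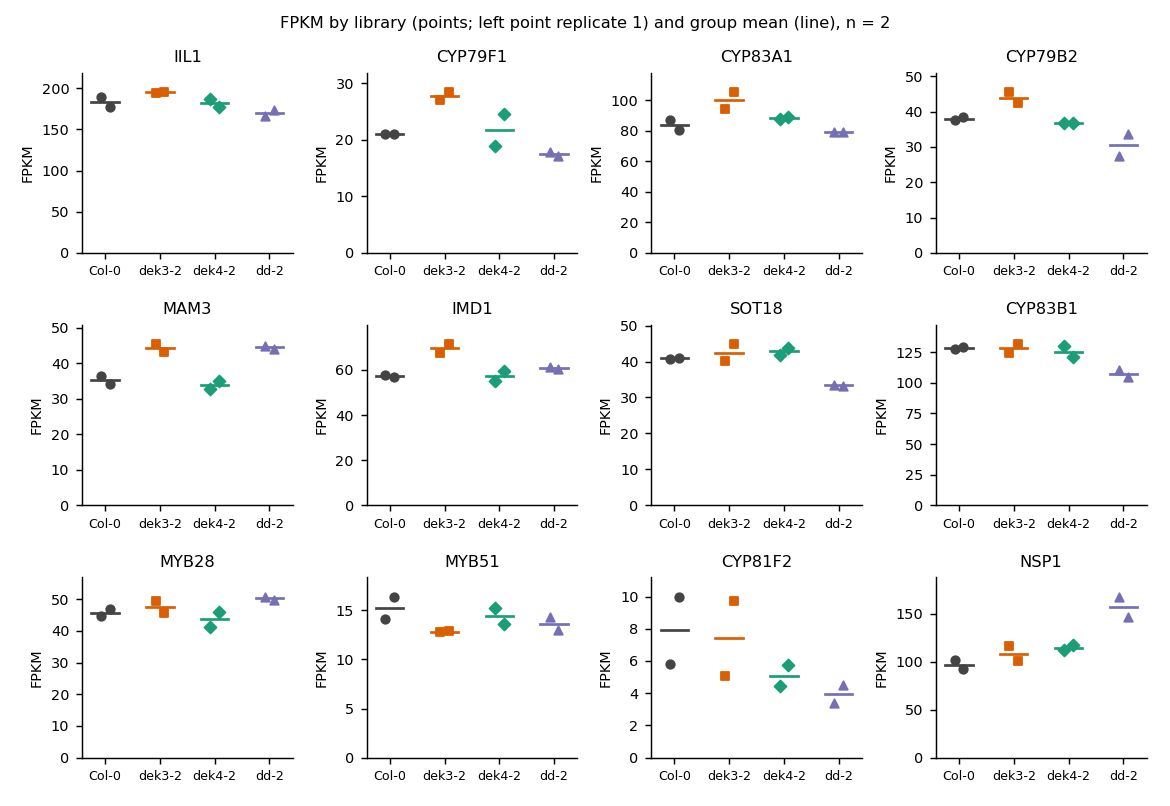
FPKM of 12 genes in each library by genotype, with a line at the mean of the 2 libraries and each vertical axis starting at 0. IIL1, CYP79F1, CYP83A1 and CYP79B2 are highest in dek3-2 and lowest in dd-2, MAM3 and IMD1 are higher in dek3-2 and dd-2, and NSP1 is highest in dd-2.

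**Figure D5:**
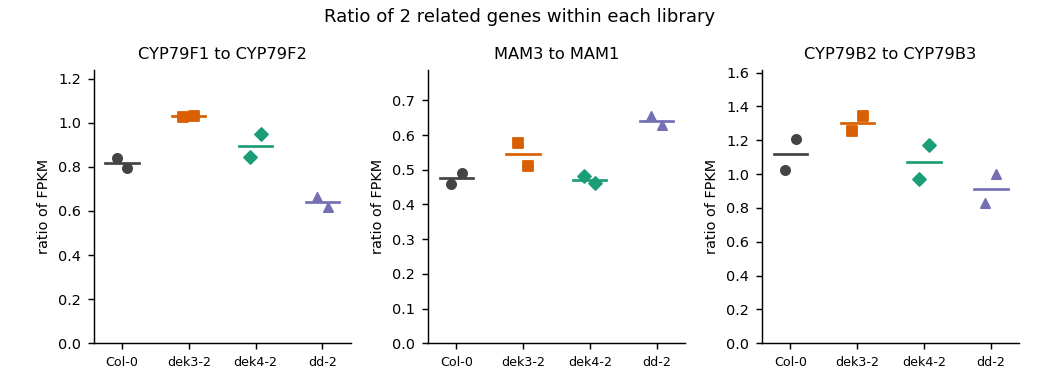
Ratio of FPKM of 2 related genes within each library, by genotype, with a line at the mean of the 2 libraries. CYP79F1 to CYP79F2 is near 1 in dek3-2 and at 0.617 to 0.662 in dd-2, and MAM3 to MAM1 is at 0.628 to 0.656 in dd-2 against 0.46 and 0.49 in Col-0.

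The pattern of IIL1, CYP79F1, CYP83A1 and CYP79B2, highest in dek3-2 and lowest in dd-2, was picked out after its values were seen, so it is a description with no test. It was found in these 4 of 39 tested members and in 0.273% of all genes. Under median-of-ratios scaling it was found in 2 members, CYP79F1 and CYP79B2, and in 0.274% of all genes. Both dek3-2 libraries were the highest of the 8 in 11 members, beside 2.83% of all genes, and 8 members under median-of-ratios scaling, beside 1.83%. Both dd-2 libraries were the lowest in 10 members, beside 7.28% of all genes, and 19 under that scaling, beside 14.7%. The interaction, which asks whether the effect of losing both genes departs from the sum of the single effects on the log2 scale, passed for 0 members and for 0.0158% of all genes by limma. Its sign was negative in 32 of 39 members, while 56.7% of all genes were positive. The 32 were counted in FPKM as deposited, where the median interaction was -0.19 over the 39 members and 0.03 over all genes. Under median-of-ratios scaling 36.1% of all genes were positive, with a median of -0.06, so the side on which most genes lay turned with the scaling. At an unadjusted p below 0.05 the interaction gave 0 members higher and 4 lower, beside 3.64% of all genes. These were CYP79F1 at -0.67 ± 0.16, SOT18 at -0.40 ± 0.11, CYP83A1 at -0.41 ± 0.11 and CYP79B2 at -0.47 ± 0.14 (SE), each with an adjusted p of 1. In 5 members, these 4 and IIL1, the libraries with and without 1 mutation lay apart in opposite directions depending on the other gene, beside 4.89% of all genes.

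The bases upstream of these 4 genes are shown, with CYP79F2 as the neighbouring copy that lacks the pattern, because members that move together may share letters there. Each window holds the 250 bases before the RefSeq gene start in TAIR10.1, read 5′ to 3′ on the gene's own strand. The positions are chr4:7807985-7808234, minus strand for IIL1, chr4:7992430-7992679, minus strand for CYP83A1, chr1:5608432-5608681, plus strand for CYP79F1, chr1:5604794-5605043, plus strand for CYP79F2 and chr4:18524792-18525041, plus strand for CYP79B2. Capitals mark matches, on either strand, to the G-box CACGTG, bound by MYC factors, and to the MYB motifs ACCTACC and ACCAACC.
IIL1: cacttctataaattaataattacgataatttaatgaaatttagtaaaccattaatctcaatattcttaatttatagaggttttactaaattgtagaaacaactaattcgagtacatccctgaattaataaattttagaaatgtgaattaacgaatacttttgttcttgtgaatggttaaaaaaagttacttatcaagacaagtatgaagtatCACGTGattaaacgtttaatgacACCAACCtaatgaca
CYP83A1: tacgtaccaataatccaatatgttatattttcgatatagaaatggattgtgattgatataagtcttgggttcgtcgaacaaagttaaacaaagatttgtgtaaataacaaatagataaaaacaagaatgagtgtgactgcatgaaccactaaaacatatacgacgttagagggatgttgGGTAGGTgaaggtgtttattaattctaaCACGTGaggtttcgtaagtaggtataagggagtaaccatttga
CYP79F1: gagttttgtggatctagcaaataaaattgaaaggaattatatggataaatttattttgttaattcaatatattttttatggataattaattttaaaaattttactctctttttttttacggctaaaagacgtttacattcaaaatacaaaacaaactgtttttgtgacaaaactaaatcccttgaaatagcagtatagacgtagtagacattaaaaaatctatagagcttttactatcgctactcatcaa
CYP79F2: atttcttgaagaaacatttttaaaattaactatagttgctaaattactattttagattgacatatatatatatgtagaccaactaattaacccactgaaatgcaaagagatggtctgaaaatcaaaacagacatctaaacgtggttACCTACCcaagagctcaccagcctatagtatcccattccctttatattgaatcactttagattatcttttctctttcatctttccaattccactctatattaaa
CYP79B2: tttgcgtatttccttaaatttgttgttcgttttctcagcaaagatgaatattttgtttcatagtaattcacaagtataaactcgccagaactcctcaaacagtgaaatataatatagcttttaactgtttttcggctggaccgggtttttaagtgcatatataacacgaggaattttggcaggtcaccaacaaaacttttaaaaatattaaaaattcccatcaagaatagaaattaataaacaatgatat

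IIL1 and CYP83A1 each held 1 G-box and 1 MYB motif, CYP79F2 held ACCTACC, and CYP79F1 and CYP79B2 held none of the 3 motifs in this window. The 4 genes with the shared pattern therefore had no motif of the 3 in common. Over the 41 members with a window, CACGTG was found in 3 (IIL1, CYP83A1 and SUR1), beside 6.57% of 26677 genes. ACCTACC was found in 3 (IPMI2, CYP79F2 and CYP83A1), beside 1.15%, and ACCAACC in 6 (IIL1, IPMI1, BAT5, SOT17, SOT16 and UGT74B1), beside 2.71%. No match shown overlaps another.

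Side-chain modification genes differed among themselves. The FMOGS-OX enzymes oxygenate the sulfur of aliphatic side chains. FMOGS-OX4 (AT1G62570) stood at 15.6 and 16.1 FPKM in Col-0, 21.2 and 18.4 in dek3-2, 16.2 and 20.7 in dek4-2, and 22.0 and 19.0 in dd-2. All 6 mutant libraries lay above Col-0, with differences of 0.30 ± 0.13, 0.20 ± 0.13 and 0.35 ± 0.13 (SE) and limma adjusted p of 1, 1 and 0.208. FMOGS-OX2 (AT1G62540) had the largest positive difference of a member in dd-2, 0.52 ± 0.27 (SE, limma adjusted p = 0.337). Its values were 6.85 and 11.1 FPKM in Col-0, 12.0 and 9.13 in dek3-2, 8.22 and 12.5 in dek4-2, and 15.1 and 11.1 in dd-2, so that 1 dd-2 library stood only just above the higher Col-0 library. FMOGS-OX1 and FMOGS-OX3 were highest in dek3-2, at 6.65 and 7.27 FPKM and at 10.8 and 11.3 FPKM, while FMOGS-OX5, on a merged locus, ran from 25.0 to 27.4 FPKM over all 8 libraries. AOP2, which is known to be inactive in Col-0, stood at 1.83 to 2.68 FPKM. All 3 mutants overlapped with Col-0 for AOP2, and the dd-2 libraries, at 2.15 and 1.86, lay below those of dek3-2 and dek4-2.

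CYP81F2 (AT5G57220; chromosome 5, 23187840 to 23189857) hydroxylates the indole ring, a step towards the compounds used against pathogens and aphids. It stood at 5.81 and 9.99 FPKM in Col-0, 5.08 and 9.73 in dek3-2, 4.42 and 5.74 in dek4-2, and 3.38 and 4.48 in dd-2. It had the largest negative difference of any member, -0.82 ± 0.32 (SE, limma adjusted p = 0.234) in dd-2 and -0.52 ± 0.32 (adjusted p = 1) in dek4-2, while dek3-2 overlapped with Col-0 at -0.10. The replicates were wide apart in Col-0 and dek3-2. The gene lies 644 kb from DEK4, the closest of the members to a mutated gene. CYP81F4 (AT4G37410), which hydroxylates the ring nitrogen and is counted on a merged locus, stood at 37.7 and 32.5 FPKM in Col-0, 39.5 and 48.1 in dek3-2, 33.7 and 37.2 in dek4-2, and 35.0 and 48.3 in dd-2. Its dek3-2 libraries lay above Col-0, by 0.31 ± 0.16 (SE, limma adjusted p = 1), and its dd-2 libraries overlapped with Col-0.

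The transporters GTR1 and GTR2, which load glucosinolates into the phloem, are both counted on merged loci. GTR1 ran from 36.2 to 44.4 FPKM with all mutants overlapping with Col-0. GTR2 stood at 50.0 and 44.5 FPKM in Col-0, 55.6 and 46.3 in dek3-2, 51.5 and 49.7 in dek4-2, and 54.4 and 59.3 in dd-2. Its dd-2 libraries lay above Col-0, by 0.26 ± 0.10 (SE, limma adjusted p = 0.232). The myrosinase TGG1 stood at 1136.9 and 1113.9 FPKM in dd-2 and at 1085.4 to 1396.2 in the other 6 libraries, and TGG2 ran from 60.2 to 96.7 FPKM. Both overlapped with Col-0 in all 3 mutants.

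Of 32 other genes of the pathway, listed by function, 27 were tested. In dek3-2, 24 of the 27 stood above Col-0 and 3 below, beside 64.7% of all genes above, and in dek4-2, 11 above and 16 below, beside 51.1% of all genes above, with 0 past the test in either. In dd-2, 15 stood above and 12 below Col-0, beside 65.9% of all genes above. There 1 of the 27 rose and 0 fell, beside 0.252% of all genes past the test. The gene that rose was NSP1 (AT3G16400), a nitrile-specifier protein that steers the breakdown of glucosinolates towards nitriles. It stood at 101.5 and 92.6 FPKM in Col-0, 116.5 and 100.3 in dek3-2, 111.9 and 117.4 in dek4-2, and 167.8 and 146.7 in dd-2, where both libraries were the highest of the 8. The rise was 0.69 ± 0.10 (SE, limma adjusted p = 0.0483). The call was lost when any 1 library was left out, with adjusted p from 0.0544 to 0.256 and differences from 0.59 to 0.79, and also under median-of-ratios scaling, at 0.60 with an adjusted p of 0.0664.

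NSP5, a second nitrile-specifier protein, stood above Col-0 in dek4-2 by 0.30 ± 0.08 (SE, limma adjusted p = 1) and in dd-2 by 0.35 ± 0.08 (adjusted p = 0.105). IGMT5, a methyltransferase of indolic side chains on a merged locus, stood above Col-0 in all 3 mutants, by 0.36, 0.33 and 0.36. NPF2.9, an indolic glucosinolate transporter on a merged locus, stood above Col-0 in dd-2 by 0.48 ± 0.13 (SE, limma adjusted p = 0.131). Lower in dd-2 were IGMT2 at -0.44, the dehydrogenase IMD3 at -0.29, the glutathione transferase GSTU20 at -0.21 and the tryptophan synthesis gene ASA1 at -0.16, none past the test. In dek3-2, GSTU20 stood at 0.20, the transcription factor MYC4 at 0.19 and CYP81F1 at 0.23. In dek4-2, NSP1 stood at 0.24 and the calmodulin-binding regulator IQD1 at 0.19. MYC4 also stood above Col-0 in dek4-2 by 0.17 and in dd-2 by 0.30, and IQD1 in dd-2 by 0.28, none past the test. Below Col-0 in dek4-2 were the root myrosinase TGG4 at -0.39, CYP81F3 at -0.21, IMD3 at -0.12 and IGMT1 at -0.10.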

How the data were processed

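RNA was sequenced from 8 libraries of whole seedlings, 2 for each of 4 genotypes, with a directional kit per the labels' protocols. The authors deposited 1 table per library with FPKM for 33557 genes, and the unit is given per the file headers. The submitters' processing notes name HISAT2, featureCounts, edgeR and TAIR10. The program that wrote the FPKM, any scaling between libraries and the use of strand in counting are not given in the sources used here, so genes that overlap on opposite strands are uncertain, as are the 7 members on loci that the files merge over several genes. The files hold no counts. Low values of single-exon genes of 1000 to 6000 bp were within 0.15 of a whole number of fragments in 99.914% to 100% of cases. This held with an end correction of 180 to 190 bp taken off the gene length, fitted per library, and gave the relative depth. One FPKM over 1 kb of the corrected length stood for 24.5 to 34.3 fragments.

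The test was limma 3.58.1 (R 4.3.3; variance trend, robust) on log2(FPKM + 1), with all 8 libraries in 1 model. It covered the 19017 genes whose mean reached 1 FPKM. There were 7 comparisons, and p-values were adjusted by Benjamini-Hochberg over all tested genes. The script was also tested on simulated data. Branch and role lists are described by counts and medians beside those of all genes. The correlation of replicate differences between genotypes ran from -0.065 to 0.23, with 0.23 between Col-0 and dek4-2. These values do not settle whether replicate numbers pair the libraries, and the main model left the replicate number out.

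The members, the lists and the settings were chosen with earlier results of these data known. Genes named by rule are the 6 MYB genes, up to 4 members per direction and mutant with the largest difference among those whose libraries did not overlap with Col-0, and up to 4 of the other pathway genes by the same rule, of which all but NSP1 are given as differences. MYB76 and MYB122, not tested, are given as ranges. Other members were named after their values were seen. Alternatives were median-of-ratios scaling, no filter, a pseudocount of 0.1, the replicate number as a block, the compared groups alone, no trend or robust step, leaving out organelle genes, and leaving out each library.

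Symbols came from the files and RefSeq by locus code, with 32813 genes matched. Gene positions are those of the files in TAIR10, counted from 1, and each is the whole locus with its exons, introns and UTRs. Nuclear coordinates coincide with TAIR10.1, from which the sequences were read (RefSeq). AOP2 had no upstream window. Plots used matplotlib 3.10.9 and Python 3.11.15.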

Additional observations from a re-analysis of the deposited data

Results flagged for a closer look

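In 5 of 39 tested members the libraries with and without 1 mutation lay apart in opposite directions, depending on whether the other gene was mutated too, a pattern found in 4.89% of all genes. Under median-of-ratios scaling it was found in 8 members, with IIL1 no longer among them, and in 5.63% of all genes. No interaction of the 5 passed over all genes (limma adjusted p = 1), and some single differences were within about 1 SE of 0, such as SOT18 in dek4-2 at 0.06 ± 0.08 and IIL1 in dek3-2 at 0.09 ± 0.07. For CYP83A1 both mutations were involved: its dek3-2 and dek4-2 libraries lay above Col-0, and its dd-2 libraries lay below both single mutants, with an interaction of -0.41. SOT18 lay above Col-0 in dek4-2 and below dek3-2 in dd-2, with an interaction of -0.40. CYP79F1, CYP79B2 and IIL1 lay above Col-0 in dek3-2 and below dek4-2 in dd-2, with interactions of -0.67, -0.47 and -0.19.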

How the results depend on the processing

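The count of members past the threshold was 0 in all 7 comparisons and under all 15 alternatives, and the lowest adjusted p of a member over these was 0.0501, for CYP81F2 in dd-2 against Col-0 with the replicate number as a block. The highest of the lowest values in that comparison was 0.361. Whether the replicate numbers pair the libraries was not settled. The fit with the replicate block left all 49 named differences on the same side, gave 0 members, and called 305 genes in place of 48 in dd-2 against Col-0, 74 in place of 5 in dd-2 against dek3-2 and 13 in place of 8 in dd-2 against dek4-2.

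Of the branch medians, the aliphatic one in dek3-2 stayed between 0.12 and 0.21. The indolic one in dek3-2 ran from 0.027 to 0.16 when single libraries were left out (0.14 without Col-0 replicate 2, 0.16 without dek3-2 replicate 1). In dd-2 the aliphatic median ran from -0.11 to 0.018 over the same fits, with 0.018 without Col-0 replicate 2, and the indolic one from -0.22 to -0.085, with -0.21 under median-of-ratios scaling. The cause of these shifts was not tested. When 1 library is left out, the other of its group is assumed to vary like the remaining groups.

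The rise of NSP1 lost its call under 12 of the 15 alternatives: no filter (adjusted p = 0.0883), compared groups alone (0.107), no trend or robust step (0.0927), median-of-ratios scaling and each library left out. Some differences of regulators, none past the test, changed sign: MYB34 to 0.012 in dek4-2 under median-of-ratios scaling and to 0.0013 in dd-2 without organelle genes, and with single libraries left out MYB28 in dek3-2 (-0.0045 to 0.11), MYB28 in dek4-2 (-0.15 to 0.012), MYB29 in dek3-2 (-0.45 to 0.10), MYB51 in dek4-2 (-0.18 to 0.032), MYB29 in dd-2 (-0.42 to 0.13) and MYB34 in dd-2 (-0.065 to 0.021). Of the results under alternatives, 714 kept direction and side and 9 turned.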

Other observations

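AOP3, which makes hydroxyalkyl side chains, was too low to test but stood at 0.835 FPKM in dek3-2 replicate 1 against 0.0684 to 0.283 in the other 7 libraries. SCPL17, an acyltransferase of seed glucosinolates, stood at 2.31 FPKM in the same library against 0.0575 to 0.178 elsewhere. That library also held the seed storage transcripts, with CRA1 at 195.7 FPKM against 0.411 to 17.1 elsewhere, and their part in these values was not tested.

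The 10 members in which the library numbered 2 stood above the library numbered 1 in every genotype were BCAT3, BAT5, CYP79F2, GSTF11, SUR1, UGT74B1, FMOGS-OX1, FMOGS-OX3, CYP81F2 and GTR1, chosen after their values were seen. For CYP81F2 the values of library 1 and library 2 were 5.81 and 9.99 FPKM in Col-0 and 5.08 and 9.73 in dek3-2.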
